A study of Mus musculus with 12 samples.

Results

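The genes Ifng, Tnf, Lta and Ltb, which encode interferon gamma, tumour necrosis factor, lymphotoxin alpha and lymphotoxin beta, were followed in 12 RNA-seq libraries of mouse CD4 T blasts. They were chosen by name and are 4 of the 24439 gene names in each library; all 4 passed the filter on low values that left 12442 genes for testing. All cells came from the spleens of C57BL/6 C42 mice, which carry a transgene of the human IL3/CSF2 locus in every group. CD4 T cells, selected on CD4 microbeads, were stimulated with the lectin concanavalin A at 2 ug/ml for 40 h and expanded in IL-2 at 50 U/ml, for 30 h by the methods and 2 days by the labels. The blasts were then kept for 16 h with IL-2 (TB IL-2) or without it (TB IL-2nil), and part of the blasts received phorbol myristate acetate (20 ng/ml) with the calcium ionophore A23187 (2 uM), together PMA/I, for 2 h, which made TB+ IL-2 and TB+ IL-2nil. Each of the 4 groups held 3 libraries; nothing in the labels says that these came from separate animals or cultures, so p-values measure the spread between these libraries, which may be technical.

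Interferon gamma is the signature cytokine of T helper 1 cells and signals through Ifngr1, Ifngr2 and the kinases Jak1 and Jak2 to activate antigen presentation and guanylate-binding proteins. TNF is made as a membrane protein, is shed by the protease Adam17 and binds Tnfrsf1a and Tnfrsf1b. Lymphotoxin alpha alone is secreted and binds the same receptors, whereas lymphotoxin alpha joined to lymphotoxin beta stays on the cell surface and binds Ltbr, the receptor that organises lymphoid tissue. Phorbol ester acts on protein kinase C and the ionophore on calcium and calcineurin, the inner steps of T cell receptor signalling, and IL-2 acts through Jak kinases and Stat5.

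A pair of libraries was placed in groups other than those of their labels. The library labelled TB IL-2nil replicate 3 was counted as TB+ IL-2 replicate 3. That labelled TB+ IL-2 replicate 3 was counted as TB IL-2nil replicate 3. This is the order in which the study's own expression table lists their values. The match was made after the deposited values were rescaled to TPM, filtered and quantile normalized. Each of the table's 12 columns was then matched within 0.1% by 1 library over 100% of 1381 genes. For the 2 columns in question the library of the same label matched at 0.0724% of the genes. The choice matters for the members: the library labelled TB IL-2nil replicate 3 held 1230 TPM of Ifng, against 1.12 and 0.718 TPM in the other libraries of that label. The library labelled TB+ IL-2 replicate 3 held 2.23 TPM, against 1252 and 3803 TPM. These values are no independent support for the placement, which sets the groups in which the members are compared. Ifng also overlaps between TB+ IL-2 and TB+ IL-2nil and so cannot tell these groups apart. With groups by label, no comparison of a member was called, and those values stand in the closing section.

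By the GENCODE annotation of mm9, the build to which the reads were aligned, Ifng lies at chr10:117878103-117882948 on the plus strand and has 4 exons. The other members share 10913 bp of chromosome 17, inside the major histocompatibility complex. Ltb has 3 exons at chr17:35331384-35333265 on the plus strand, Tnf has 4 at chr17:35336326-35338952 on the minus strand and Lta has 4 at chr17:35340110-35342296 on the minus strand, so that 3060 bp separate Ltb from Tnf and 1157 bp separate Tnf from Lta. The bases upstream of the RefSeq start of each gene are shown because the 4 genes did not move alike, and 3 of them are neighbours. The sequences are from RefSeq on GRCm38.p6, run 5′ to 3′ on the strand of the gene and end at its start, except that of Ltb, which is given only as far as the mm9 gene model begins (182 of 250 bases). Capitals mark every match to the motifs named after them.

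Ifng: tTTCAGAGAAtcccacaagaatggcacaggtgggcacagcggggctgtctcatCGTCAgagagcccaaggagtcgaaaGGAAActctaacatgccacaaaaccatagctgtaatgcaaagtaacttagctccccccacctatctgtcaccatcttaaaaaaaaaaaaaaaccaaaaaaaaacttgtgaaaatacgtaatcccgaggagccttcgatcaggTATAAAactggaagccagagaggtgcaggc

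Tnf: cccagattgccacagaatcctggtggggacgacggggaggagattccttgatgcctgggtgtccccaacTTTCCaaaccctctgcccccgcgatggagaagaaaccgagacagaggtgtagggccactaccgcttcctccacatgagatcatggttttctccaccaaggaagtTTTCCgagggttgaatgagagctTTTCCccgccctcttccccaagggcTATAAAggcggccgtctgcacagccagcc

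Lta: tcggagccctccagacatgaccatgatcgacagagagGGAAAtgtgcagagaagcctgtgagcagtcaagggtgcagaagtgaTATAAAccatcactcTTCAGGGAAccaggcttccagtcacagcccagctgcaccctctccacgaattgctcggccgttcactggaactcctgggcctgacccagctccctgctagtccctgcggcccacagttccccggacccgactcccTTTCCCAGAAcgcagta

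Ltb: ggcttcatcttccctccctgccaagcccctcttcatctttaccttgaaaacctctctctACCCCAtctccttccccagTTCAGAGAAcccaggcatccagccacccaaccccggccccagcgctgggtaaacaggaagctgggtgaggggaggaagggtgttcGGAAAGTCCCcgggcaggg

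These are chr10:118440796-118441045 (Ifng, plus strand), chr17:35202008-35202257 (Tnf, minus strand), chr17:35205352-35205601 (Lta, minus strand) and chr17:35194257-35194438 (Ltb, plus strand) of GRCm38.p6. Both strands were searched over 250 bases for the NFAT core GGAAA, the AP-1 site TGANTCA, the CRE core TGACG, a kappaB site by its usual consensus, the STAT-type GAS element TTCNNNGAA and the RUNX core TGNGGT, and the strand of the gene for the TATA box TATAAA. The NFAT core stood 3 times upstream of Tnf, 2 times upstream of Lta and once upstream of Ifng and of Ltb. It is a short motif, held by 55.6% of 32851 promoter windows of the same length. A TATA box lay 30 bases upstream of the Ifng start and 29 bases upstream of the Tnf start, while the match of Lta began 167 bases upstream and Ltb had none; 7.59% of windows held one. Of the 4 genes, the kappaB match was found for Ltb alone, 87 to 78 bases upstream and overlapping the NFAT core there, against 7.25% of all windows. The GAS letters were present upstream of Ifng, Lta (2 matches, of which 1 overlaps an NFAT core) and Ltb, against 7.02% of windows, a CRE core upstream of Ifng (17.8% of windows) and 2 RUNX cores upstream of Ltb (40.1% of windows), the second of them 28 bases from the start and so beyond the printed stretch. The AP-1 letters, held by 6.75% of windows, were in none of the 4. A match is a description of letters and not a measured site.

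Levels were compared as TPM, a share of all transcripts in a library that is corrected for transcript length and so allows comparison between genes; values were scaled between libraries by the upper quartile. A gene was called where a difference passed 3-fold on the log2(TPM + 1) scale and an adjusted p of 0.05 (limma, Benjamini-Hochberg over all 12442 genes). In bulk RNA, fewer cells that express a gene and less of its RNA per cell cannot be told apart. Separate groups are common in these data: the 3 libraries of one group lay wholly to one side of those of the other for 53.2% of all genes between resting groups, for 51.7% with PMA/I in IL-2, for 64.1% with PMA/I without IL-2 and for 37.2% between stimulated groups.

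Ifng was nearly silent in resting blasts and among the most abundant transcripts after PMA/I. In TB IL-2nil it stood at 1.12, 0.718 and 2.23 TPM and in TB IL-2 at 1.46, 3.86 and 4.14 TPM, and these ranges overlap. After PMA/I it reached 716.1, 1316 and 858.2 TPM in TB+ IL-2nil and 1252, 3803 and 1230 TPM in TB+ IL-2. Every stimulated library was above every resting one, and the highest value, in TB+ IL-2 replicate 2, was about 3 times those of the other 2 libraries of its group. The mean ranked 79th of all 24439 names in TB+ IL-2 and 174th in TB+ IL-2nil, against 9415th in TB IL-2 and 10730th in TB IL-2nil.

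Tnf shared the rise with PMA/I but started from a level that differed with IL-2. Resting blasts without IL-2 held 3.99, 4.78 and 9.35 TPM of Tnf, and those kept in IL-2 held 30.7, 80.6 and 59.7 TPM. Stimulated blasts held 3839, 1146 and 1599 TPM without IL-2 and 4623, 1625 and 3142 TPM with it. The resting groups do not overlap, the stimulated groups do, and replicate 1 was the highest and replicate 2 the lowest in both stimulated groups. By its mean Tnf ranked 29th of all names in TB+ IL-2 and 93rd in TB+ IL-2nil.

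Lta, the immediate neighbour of Tnf, moved over a far narrower range. It was at 12.3, 9.54 and 16.6 TPM in TB IL-2nil, at 49.6, 110.2 and 35.6 TPM in TB IL-2, at 114.7, 79.4 and 112.3 TPM in TB+ IL-2nil and at 138.7, 126.7 and 139.4 TPM in TB+ IL-2. Replicate 2 of TB IL-2 lay among the stimulated libraries without IL-2, and these 2 groups overlap; every other pair of groups was separate. The mean ranked 6543rd in TB IL-2nil and 931st in TB+ IL-2.

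Ltb ran the other way. It was highest in TB IL-2nil, at 551.3, 681.2 and 703.5 TPM, and lower in TB IL-2, at 259.7, 254.9 and 270.4 TPM. After PMA/I it stood at 72.5, 115.3 and 215 TPM without IL-2 and at 71.1, 70.2 and 129.5 TPM with it. The resting groups were separate from each other and from both stimulated groups, and the stimulated groups overlapped. In TB IL-2nil its mean was the 155th highest of all names, above each of the other 3 members there.

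**Figure D1:**
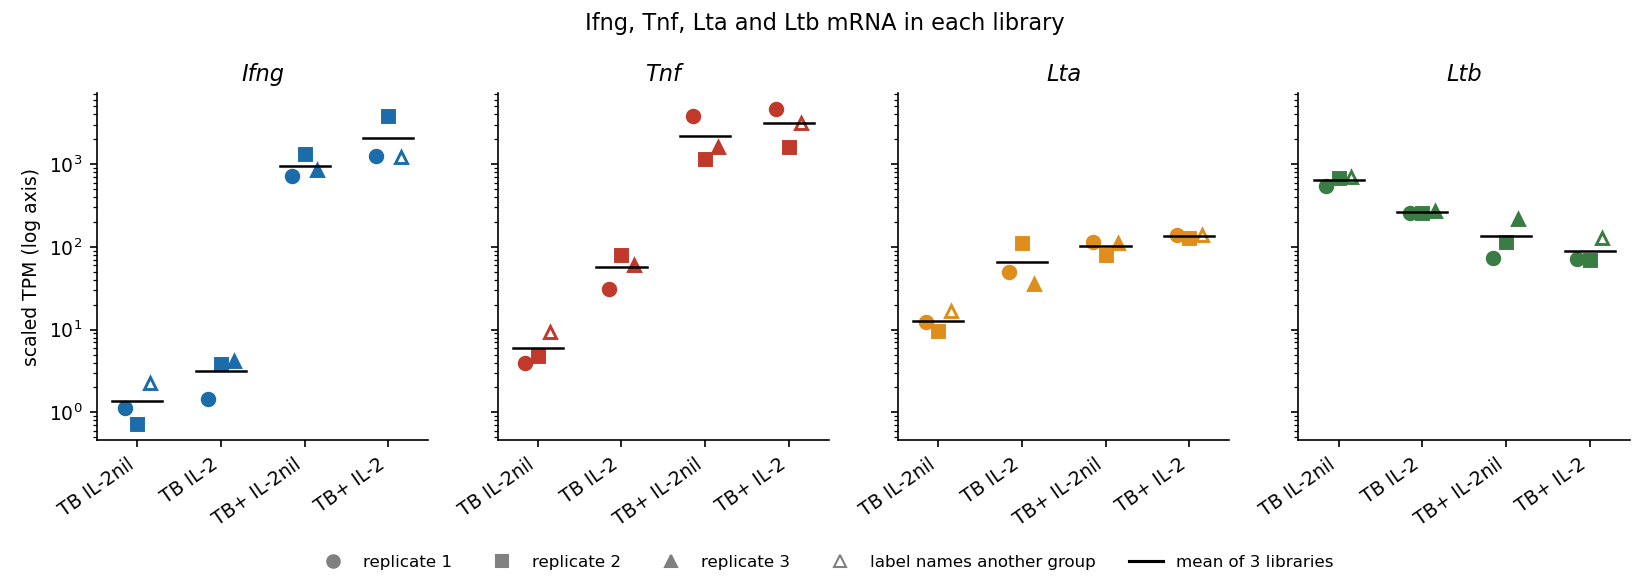
Scaled TPM (log axis) of the 4 genes in each of the 12 libraries, by group; symbols give the replicate number, open symbols the libraries whose label names another group, and bars the mean of 3 libraries. Ifng and Tnf rose with PMA/I from 0.718 to 4.14 TPM and from 3.99 to 80.6 TPM to 716.1 TPM or more in every stimulated library, while Ltb fell from 254.9 to 703.5 TPM to between 70.2 and 215 TPM.

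The first comparison asked what the presence of IL-2 did in blasts without PMA/I. Tnf and Lta rose in TB IL-2 over TB IL-2nil, Ltb was lower and Ifng did not pass the test. The mean of Tnf was 57 ± 25 TPM with IL-2 and 6.04 ± 2.89 TPM without (SD, n = 3 libraries each), a log2 difference of 3.01 (SE 0.52, adjusted p = 0.00144). For Lta the means were 65.1 ± 39.6 and 12.8 ± 3.57 TPM (SD, n = 3) and the log2 difference was 2.13 (SE 0.35, adjusted p = 0.00102). Ltb gave -1.29 (SE 0.35, adjusted p = 0.0131), from 261.7 ± 7.96 against 645.3 ± 82.2 TPM (SD, n = 3), a difference past the adjusted p and 2.45-fold in size, so not called. Ifng gave 0.80 with a 95% interval from -0.21 to 1.80 (adjusted p = 0.188), with means of 3.16 ± 1.48 and 1.36 ± 0.785 TPM. Thus 2 of the 4 members were called, where 7.42% of all genes tested were called. Without TB IL-2 replicate 2, the library with the highest Tnf and Lta of its group, both calls remained; over all alternatives that kept the placement of libraries, the log2 difference of Tnf ran from 2.72 to 3.39 and that of Lta from 1.67 to 2.47.

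B cell markers moved in the same direction as Ltb in this comparison and in both PMA/I comparisons below. B cells are a known source of Ltb. The cells had been selected on CD4 microbeads before the culture. The 3 markers Cd79a, Cd79b and Ms4a1 summed to between 20.4 and 26.6 TPM in TB IL-2nil and 5.05 and 9.74 TPM in TB IL-2. The sums were 4.74 to 12.1 TPM in TB+ IL-2nil and 2.09 to 2.81 TPM in TB+ IL-2, none of the markers at 0. Their part in the Ltb results, at rest and with PMA/I, was not tested. The CD4 T cell markers measured here, 4 of 5 under the listed names, summed to between 906 and 1798 TPM and were likewise highest in TB IL-2nil.

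PMA/I with IL-2 present was followed by the comparison of TB+ IL-2 with TB IL-2. Ifng rose from 3.16 ± 1.48 to 2095 ± 1479 TPM (SD, n = 3), a log2 difference of 8.84 (SE 0.46, adjusted p = 3.33e-07). Tnf rose from 57 ± 25 to 3130 ± 1499 TPM, by 5.73 on the log2 scale (SE 0.52, adjusted p = 2.17e-05). Lta was higher in each stimulated library, at 134.9 ± 7.15 against 65.1 ± 39.6 TPM, but its log2 difference of 1.2 (SE 0.35, adjusted p = 0.021) is 2.30-fold and was not called. Ltb fell by 1.59 on the log2 scale (SE 0.35, adjusted p = 0.00515), from 261.7 ± 7.96 to 90.3 ± 34.0 TPM, and sits on the 3-fold limit. Of the 4 members 3 were called, against 7.04% of all genes.

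The calls of both lymphotoxin genes here depended on single libraries. Without TB IL-2 replicate 2, where Lta was at 110.2 TPM, the log2 difference of Lta became 1.66 and was called (adjusted p = 0.0013; range over alternatives with the placement kept 0.0013 to 0.0803). Ltb was no longer past 3-fold without TB IL-2 replicate 3 (-1.56), TB+ IL-2 replicate 1 (-1.45) or TB+ IL-2 replicate 2 (-1.44), with an adjusted p of at most 0.0243 throughout.

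The effect of PMA/I without IL-2 was read from TB+ IL-2nil against TB IL-2nil. From TB IL-2nil to TB+ IL-2nil, Ifng rose from 1.36 ± 0.785 to 963.4 ± 313.6 TPM (log2 difference 8.68, SE 0.46, adjusted p = 2.63e-07) and Tnf from 6.04 ± 2.89 to 2195 ± 1442 TPM (8.16, SE 0.52, adjusted p = 9.44e-07; SD, n = 3 for each mean). Lta rose from 12.8 ± 3.57 to 102.1 ± 19.7 TPM (2.91, SE 0.35, adjusted p = 4.11e-05). Ltb fell from 645.3 ± 82.2 to 134.3 ± 73.1 TPM (-2.39, SE 0.35, adjusted p = 0.000149). All 4 members were called, where 18.5% of all genes were. The median difference of all genes was itself -0.38 here and moved to -0.08 under median-ratio scaling and -0.78 without scaling; the 4 directions were the same under each scaling, with Ltb between -3.11 and -1.99 over the alternatives that kept the placement.

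Between stimulated blasts with and without IL-2, no member passed the test. The means of Ifng were 2095 ± 1479 TPM in TB+ IL-2 and 963.4 ± 313.6 TPM in TB+ IL-2nil, and the log2 difference of 0.95 has a 95% interval from -0.05 to 1.96 (adjusted p = 0.164). Libraries with the same replicate number had 1.75, 2.89 and 1.43 times as much Ifng with IL-2 as without, and the ratio of the means was 2.17. By a lower fold threshold than the 3-fold used here, the study listed Ifng among inducible genes affected by IL-2 removal. For some of those genes it also reported quantitative PCR, and weaker induction under the Jak inhibitor Ruxolitinib. Tnf gave 0.58 (interval -0.57 to 1.73, adjusted p = 0.464), Lta 0.42 (-0.35 to 1.18, adjusted p = 0.426) and Ltb -0.49 (-1.25 to 0.28, adjusted p = 0.344). These intervals allow differences of more than 3-fold for Ifng and Tnf. None of the 4 was called in limma, while 3.62% of all genes were called. None had an unadjusted p under 0.05, the smallest being 0.0616 for Ifng, where 35.2% of all genes had one. With the replicate number as a block, the unadjusted p of Ifng was 0.039 (95% interval 0.06 to 1.84, adjusted p = 0.0947), and 44.1% of all genes were under 0.05. Ifng, Tnf and Lta were each higher with IL-2 in 3 of 3 same-numbered pairs, as were 30.4% of all genes.

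**Figure D2:**
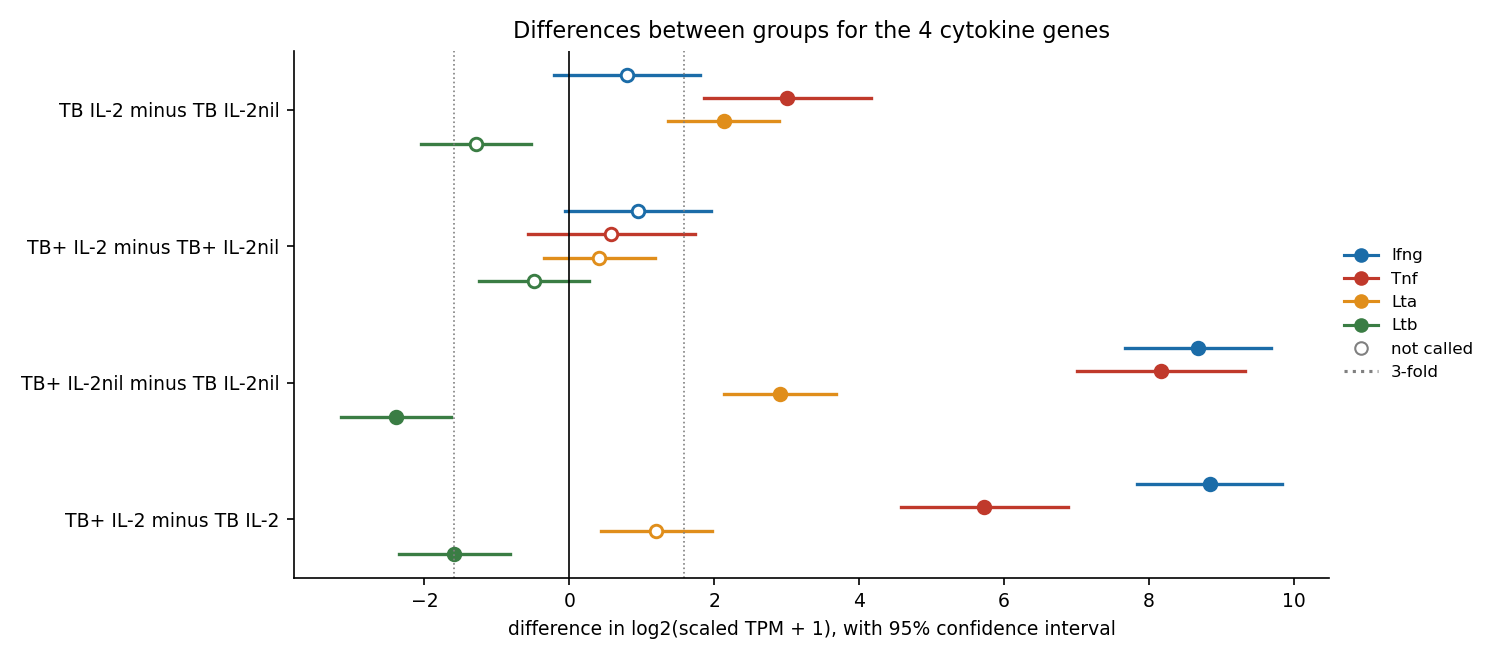
Log2 differences in scaled TPM + 1 between groups for the 4 genes, with 95% confidence intervals from the fit over 12 libraries; filled points were called, open points were not, and dotted lines mark 3-fold. Tnf and Lta differ with IL-2 at rest (3.01 and 2.13), no member was called between stimulated groups, and the estimate for Ltb lies below 0 in every comparison.

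The interaction asks whether the change with PMA/I differed between blasts with and without IL-2. It was negative for Tnf, at -2.43 (SE 0.74, adjusted p = 0.0878), and for Lta, at -1.71 (SE 0.49, adjusted p = 0.0761), the smaller change being that with IL-2. Ltb gave 0.80 (SE 0.49, adjusted p = 0.355) and Ifng 0.16 (SE 0.65, adjusted p = 0.907). None passed the adjusted p, although 2 of the 4 (Tnf and Lta) had an unadjusted p under 0.05, as did 23.1% of all genes, and 4.23% of all genes passed the adjusted p. So the larger rise of Tnf and Lta without IL-2 was not established as a difference between the conditions. The sign of the Ifng interaction changed between alternatives.

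Ratios within a library do not depend on the scaling between libraries. Ltb exceeded Lta 42.3 to 71.4 times in TB IL-2nil and 2.31 to 7.60 times in TB IL-2, while in TB+ IL-2nil the ratio was 0.632 to 1.91 and in TB+ IL-2 0.512 to 0.929. Thus the lymphotoxin transcripts went from a large excess of Ltb to near parity, and in TB+ IL-2 there was less Ltb than Lta in each library. Tnf was present at 0.324 to 0.562 times the level of Lta in TB IL-2nil, at 0.619 to 1.68 times in TB IL-2, and at 12.8 to 33.5 times in stimulated blasts. The ratio of Ifng to Tnf was lower in TB IL-2 (0.0475 to 0.0695) than in TB IL-2nil (0.15 to 0.279). Resting Ifng was low, at 0.718 to 4.14 TPM, and was not distinguished between these groups. After PMA/I the ratio of Ifng to Tnf spread from 0.187 to 2.34. In replicate 2 of both stimulated groups Ifng exceeded Tnf, and in replicates 1 and 3 Tnf exceeded Ifng.

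**Figure D3:**
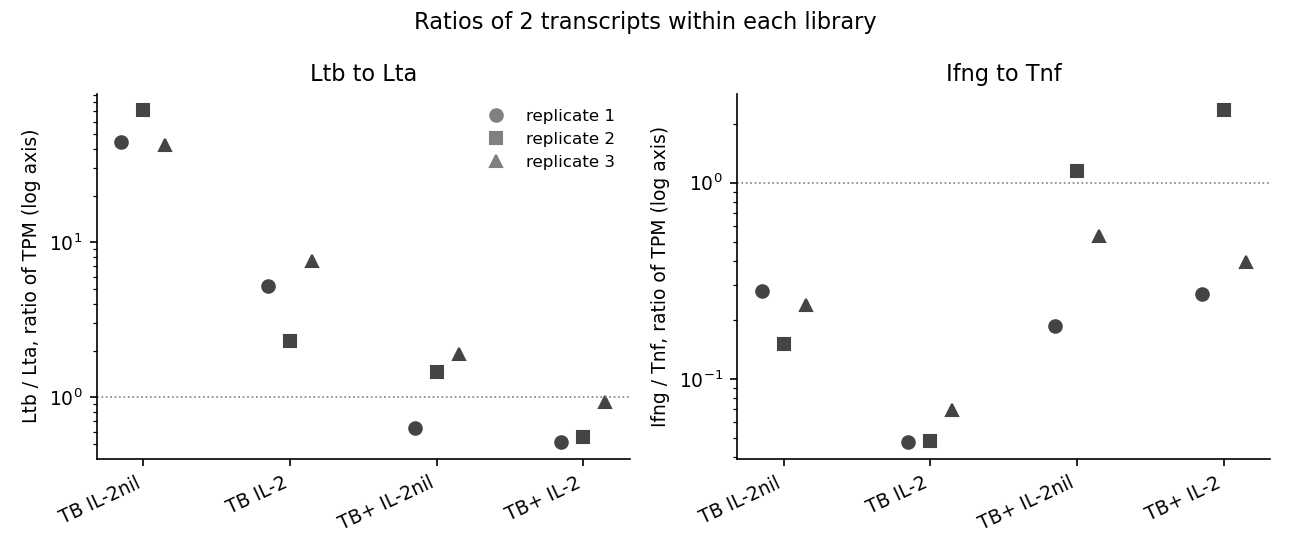
Ratio of Ltb to Lta and of Ifng to Tnf in each of the 12 libraries (ratio of TPM, log axis; symbols give the replicate number, and the dotted line marks a ratio of 1). The Ltb to Lta ratio falls from 42.3 or more in TB IL-2nil to 0.929 or less in TB+ IL-2, and the stimulated libraries of replicate 2 alone lie above 1 for Ifng to Tnf.

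The ordered levels differ between the genes. For Ifng and Tnf the order of means was TB IL-2nil, TB IL-2, TB+ IL-2nil, TB+ IL-2; the lower 2 groups were not distinguished for Ifng, and the upper 2 were not distinguished for either gene. Lta had the same order, with TB IL-2 and TB+ IL-2nil overlapping. Its upper 2 groups did not overlap, as for 37.2% of all genes, but limma did not distinguish them (adjusted p = 0.426). The order of Ltb was the reverse, with the stimulated groups not distinguished.

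The genes whose pattern over the 12 libraries was most like that of a member are given by Pearson's r on the log2 scale, which the 4 group means largely set. Closest to Ifng were Olr1, a scavenger receptor (r = 0.991), Csf2, the cytokine GM-CSF (0.991), and Lipg, endothelial lipase (0.988). Csf2 rose to between 1736 and 3656 TPM in TB+ IL-2 and to between 442.5 and 754.3 TPM in TB+ IL-2nil. Closest to Tnf were Cops8, a COP9 signalosome subunit (0.985), Kis2 (0.983) and Spry1, an inhibitor of Ras signalling (0.983), of which Spry1 went from 0.668 ± 0.305 TPM in TB IL-2nil to 1257 ± 347.6 TPM in TB+ IL-2nil (SD, n = 3). Closest to Lta were Il2ra, the IL-2 receptor alpha chain (0.979), Hsd17b7 (0.962) and Rpusd2 (0.955). Il2ra had a mean of 71.3 ± 11.5 TPM in TB IL-2nil and 442.4 ± 279.7 in TB IL-2 (SD, n = 3). Its means were 607.2 ± 57.3 TPM in TB+ IL-2nil and 761 ± 115.4 in TB+ IL-2. In TB IL-2 it spread from 228.9 to 759.1 TPM, above every library of TB IL-2nil. Lta likewise spread in TB IL-2, from 35.6 to 110.2 TPM, above every library of TB IL-2nil. Closest to Ltb were Lrrc61 (0.990), Rin3 (0.986) and Naa60 (0.986). Between members, r was 0.949 for Ifng and Tnf, 0.915 for Tnf and Lta and 0.804 for Ifng and Lta, and from -0.93 to -0.878 for Ltb with the others.

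Among the tested genes next to the members, only Il22 was called in any of the 4 comparisons of groups. Among the 3 protein-coding genes on either side of the Tnf cluster, Lst1, Prrc2a, Nfkbil1, Atp6v1g2 and Ddx39b were tested and none was called in the 4 comparisons of groups; Aif1 was under the filter. The mean of Nfkbil1, between 10.1 and 25.3 TPM, and that of Prrc2a, between 84.4 and 127.8 TPM, varied less than 3-fold over the 4 groups. Beside Ifng, Il22, another T cell cytokine, was listed at 0 in all 6 resting libraries, at 2.34 to 9.85 TPM in TB+ IL-2 and at 0 to 1.3 TPM in TB+ IL-2nil, and was called higher with IL-2 after PMA/I (log2 difference 1.78, SE 0.39, adjusted p = 0.00978). Its difference between TB+ IL-2 and TB IL-2 was also called, and Iltifb, a near-identical copy of Il22 that could share its reads, was listed at 0 in every library. Mdm1, Dyrk2 and Cand1 were not called in any of these 4 comparisons, and Grip1 was under the filter, as was Iltifb.

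Of the 4 receptor genes for TNF and lymphotoxin, 3 were tested and 1 was called, in 1 comparison (PMA/I without IL-2, where 18.5% of all genes were called). Tnfrsf1a stood between 13.1 ± 2.93 TPM (TB+ IL-2nil) and 23.6 ± 5.77 TPM (TB IL-2nil; SD, n = 3) and was not called. Tnfrsf1b, the inducible receptor of T cells, rose with PMA/I in the absence of IL-2, from 38.7 ± 17.6 to 144.6 ± 64.6 TPM (log2 difference 1.89, SE 0.48, adjusted p = 0.00519). In the presence of IL-2 its means were 41.6 ± 17.9 and 68.3 ± 20.1 TPM and it was not called. Its interaction of -1.13 (SE 0.67, adjusted p = 0.344) did not establish a difference between the conditions. Tnfrsf14, which binds lymphotoxin alpha and LIGHT, was at 67.9 ± 14.6 TPM in TB IL-2nil and 25 ± 5.94 TPM in TB IL-2 (log2 difference -1.41, adjusted p = 0.00083) and passed 3-fold in no comparison. Ltbr was listed at 0.168 TPM or less in every library and was not tested. Of the proteins that process TNF, Adam17 was at 15.4 to 27.7 TPM by group means and was not called, whereas Rhbdf2, the partner that carries Adam17 to the surface, rose with PMA/I in both conditions (log2 differences 2.24 with IL-2 and 2.93 without; adjusted p = 0.000416 and 2.13e-05).

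Most NF-kB genes were called higher with PMA/I, and the part of the TNF and lymphotoxin receptors in this was not tested. Of 13 subunits, inhibitors and targets tested, 10 were called higher with IL-2 (median log2 difference 2.42, against -0.22 over all genes), and 8 were called higher and 1 lower without IL-2 (2.06 against -0.38). By the adjusted p alone, 11 were higher and 2 lower with IL-2, and 9 higher and 1 lower without. Over all genes, 11.8% were higher and 23.3% lower with IL-2, and 20.1% and 41.1% without. Those called in either direction were 7.04% of all genes with IL-2 and 18.5% without. Rel, the subunit most tied to T cell activation, rose from 11.2 ± 3.33 to 410.7 ± 90.9 TPM with IL-2 and from 30.6 ± 10.3 to 790 ± 218 TPM without (SD, n = 3). Next in size with IL-2 were the inhibitors Nfkbie (3.15) and Tnfaip3 (3, SE 0.92, adjusted p = 0.0261) and the subunit gene Nfkb2 (2.53). The size for Tnfaip3 is uncertain, since it spread from 4.26 to 60.6 TPM in TB IL-2, against 109.6 to 118.8 TPM in TB+ IL-2. Without IL-2 the next in size were Nfkb1 (2.96), Rela (2.77) and Nfkbiz (2.77). The gene called lower was Tnip1, a partner of Tnfaip3 (-1.84). At rest, none of the 13 was called for IL-2. By the adjusted p alone 6 of them were lower with IL-2, as were 22.3% of all genes.

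Of 12 TNF receptor signalling genes, Traf1 (1.87) and Birc3 (1.71), which bind the receptor complex and are known NF-kB targets, were called higher with PMA/I in IL-2. Without IL-2 their log2 differences were 1.01 and 1.12 (adjusted p = 0.0107 and 0.000611), under 3-fold, and the call was that of Ikbkg, the regulatory subunit of the IkB kinase, which fell by 1.72 on the log2 scale. With IL-2 Ikbkg gave -1.09 (adjusted p = 0.000597), also under 3-fold. The interactions of Traf1, Birc3 and Ikbkg did not pass the adjusted p (0.234, 0.241 and 0.139). By the adjusted p alone, 4 of the 12 were higher and 3 lower with IL-2, and 5 higher and 3 lower without. The shares over all genes were 11.8% higher and 23.3% lower with IL-2, and 20.1% and 41.1% without. Map3k14, the kinase of the noncanonical pathway that Ltbr uses, was at 7.95 ± 4.18 TPM in TB IL-2 and 28.5 ± 7.55 TPM in TB IL-2nil (log2 difference -1.79, SE 0.31, adjusted p = 0.00134), the 1 gene of the list called between resting groups.

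Both chains of the interferon gamma receptor fell as Ifng rose. Ifngr1 went from 207.5 ± 42.8 to 57.5 ± 21.0 TPM with IL-2 (log2 difference -1.88, SE 0.42, adjusted p = 0.00536) and from 361.3 ± 192 to 69.3 ± 30.9 TPM without (-2.32, adjusted p = 0.00061). Ifngr2 gave -1.64 (SE 0.56, adjusted p = 0.0419) and -1.81 (adjusted p = 0.0156). The kinase gene Jak2 rose by 3.99 with IL-2 and by 3.32 without. The feedback inhibitors behaved differently by condition: Socs1, at 251.9 ± 134 TPM in TB IL-2, 57.9 ± 20.1 in TB IL-2nil, 91.1 ± 21.1 in TB+ IL-2 and 370.6 ± 175.8 in TB+ IL-2nil (SD, n = 3), had an interaction of -3.96 (SE 0.62, adjusted p = 0.0125), and Socs3 one of -2.45 (SE 0.37, adjusted p = 0.0122). In all, 1 of 7 receptor and signalling genes was called higher and 2 lower with PMA/I in IL-2, and 3 higher and 2 lower without it. Of all genes, 7.04% and 18.5% were called in these comparisons, in either direction.

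Of 19 interferon gamma target genes tested, 4 were called higher with PMA/I in IL-2 (median 0.49, against -0.22 over all genes) and 7 without (median 1.02 against -0.38). By the adjusted p alone, 6 were higher and 3 lower with IL-2 and 9 higher and 3 lower without. All genes tested gave 11.8% higher and 23.3% lower with IL-2, and 20.1% and 41.1% without. Of all genes, 7.04% were called with IL-2 and 18.5% without, in either direction. Cd274, the ligand PD-L1, rose by 3.74 and 4.69, the guanylate-binding protein gene Gbp3 by 3.38 and 3.12, and Irf8, a transcription factor, by 3.15 and 6.36, with and without IL-2 in that order. Gbp2 (2.46) completed the 4 in IL-2, and Irgm1 (2.20) was the fourth largest without. Irf8 was also higher with IL-2 at rest (2.38, SE 0.50, adjusted p = 0.00386), and it and Igtp had an interaction past the adjusted p (-3.21 and -2.03; adjusted p = 0.0336 and 0.0295). The 3 lower genes were under 3-fold in both conditions: Psmb8 and Psmb9, subunits of the immunoproteasome, and Ciita, the activator of MHC class II genes, which were named after their values were seen (the plot of PMA/I differences for the NF-kB and interferon gamma target lists).

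**Figure D4:**
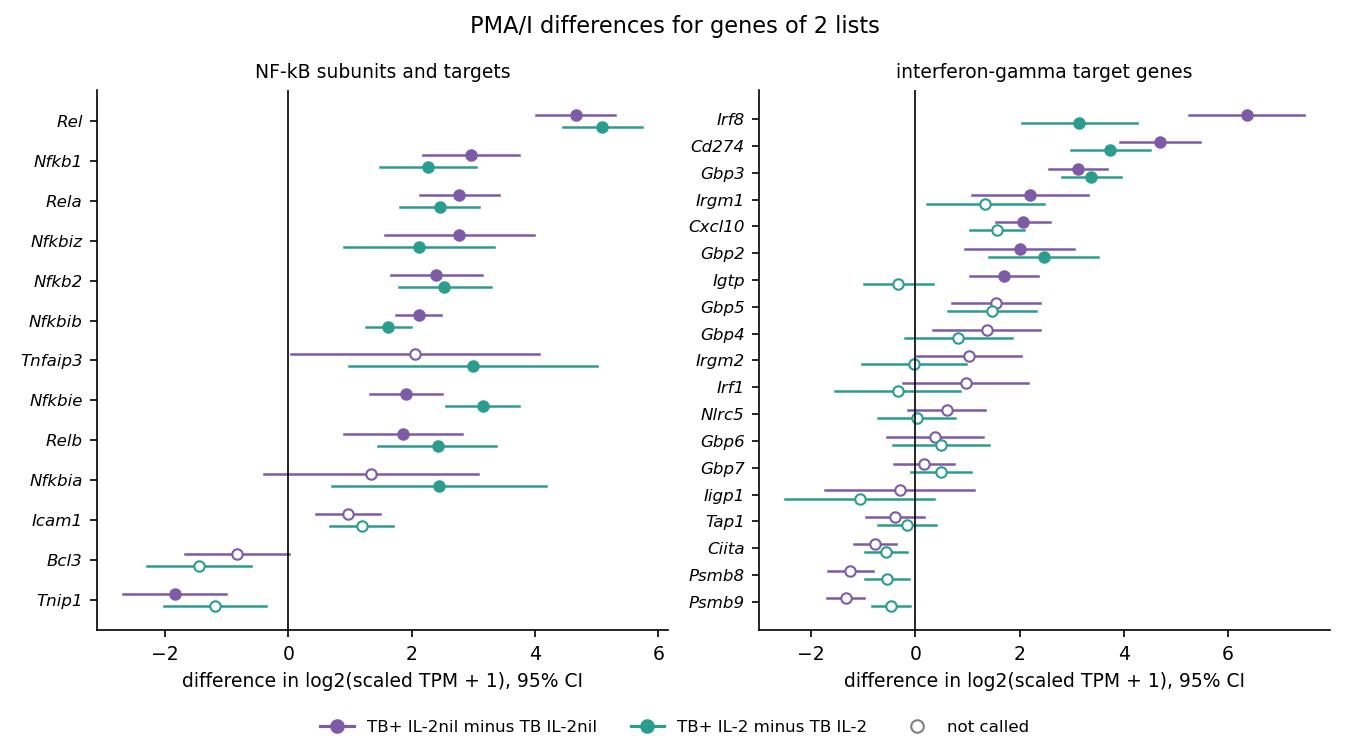
Log2 differences in scaled TPM + 1 with PMA/I, without IL-2 (purple) and with IL-2 (green), for the tested genes of the NF-kB list and the interferon gamma target list, with 95% confidence intervals; filled points were called. Most NF-kB genes lie above 0 in both conditions (10 with IL-2 and 8 without, of 13, called higher), whereas 4 with IL-2 and 7 without, of 19 interferon gamma targets, were called higher. Of all genes, 7.04% with IL-2 and 18.5% without were called in either direction.

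Of the known regulators of Ifng in T cells, 12 of 14 were listed under these names and 11 were tested. Tbx21, which encodes T-bet, rose from 10.1 ± 3.79 to 111.4 ± 29.7 TPM with IL-2 (log2 difference 3.36, adjusted p = 0.000291) and from 10.3 ± 6.35 to 257.2 ± 62.0 TPM without (4.70, adjusted p = 9.92e-06; SD, n = 3). Runx3, which acts with T-bet, fell in both, by 1.96 and 2.01 on the log2 scale, and Bhlhe40 rose without IL-2 (2.81). With IL-2 the Bhlhe40 difference was 0.87 (adjusted p = 0.223). Its interaction of -1.94 did not pass the adjusted p (0.149). Il12rb1, a chain of the IL-12 receptor, was higher with IL-2 after PMA/I (1.64, SE 0.28, adjusted p = 0.00259). At rest it was also higher with IL-2, under 3-fold (1.28, adjusted p = 0.00465). Stat4, which IL-12 activates, was lower with IL-2 at rest (-1.60, adjusted p = 0.00682). After PMA/I its difference was -0.52 (adjusted p = 0.352). The interactions of Il12rb1 and Stat4 did not pass the adjusted p (0.616 and 0.252). Among 9 genes of cytokine mRNA decay, 2 were called higher with PMA/I in both conditions, where 7.04% (with IL-2) and 18.5% (without) of all genes were called. Zfp36l1, which binds AU-rich elements, rose by 4.49 and 4.38, with and without IL-2, to 1072 ± 113.6 and 2010 ± 123 TPM, and Zc3h12a, the RNase regnase-1, by 2.35 and 1.67. Zc3h12d was lower with IL-2 at rest (-1.77) and fell with PMA/I without IL-2 (-1.64), while its interaction did not pass the adjusted p (0.437).

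Other sources of these cytokines had low markers. The 5 NK cell markers summed to between 0.129 and 2.04 TPM, with Ncr1 and Klra8 listed at 0 in all 12 libraries, the CD8 T cell markers to between 6.91 and 31.9 TPM with overlapping ranges in the 4 groups, and the 6 myeloid markers to between 1.78 and 5.07 TPM. The 3 regulatory T cell markers summed to between 31.4 and 68.7 TPM in TB IL-2 and to between 4.66 and 17.1 TPM elsewhere, and this difference was that of Lrrc32, which activated T cells can also express (47.1 ± 18.7 TPM in TB IL-2 and 3.2 ± 2.47 TPM in TB IL-2nil; SD, n = 3). The defining marker Foxp3 was at 0.958 ± 0.547 and 1.05 ± 0.688 TPM and Ikzf2 at 1.46 ± 1.1 and 3.81 ± 0.429 TPM in the same groups. The part of regulatory T cells in the Tnf and Lta results was not tested. Library depth relative to the median ran from 0.409 (TB IL-2nil replicate 2) to 1.25, and short non-coding RNAs took 16.6% to 53.2% of the TPM, most in TB+ IL-2nil replicate 1.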

How the data were processed

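RNA was depleted of ribosomal RNA and made into strand-specific paired-end libraries. Per the labels and methods, the authors used Trimmomatic 0.32 for trimming, HISAT2 2.1.0 for alignment (mm9) and StringTie 1.3.3 with RefSeq models for quantification; the deposited values are FPKM (fragments corrected for transcript length and library size), 24439 gene names per library, without read counts, so that absolute depth is unknown and a relative depth was read from the steps between low values. FPKM values were rescaled to TPM per library, genes over 1 TPM in at least 1 of 12 libraries were kept (12442), and values were scaled by the 75th percentile. Differences were tested on log2(TPM + 1), which understates changes of low genes, by limma 3.58.1 in R 4.3.3 with 4 groups, 8 residual degrees of freedom and no block, with Benjamini-Hochberg adjustment over all genes; the interaction was called on the adjusted p alone. The procedure was tested on simulated data.

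The members, lists and placement of libraries were chosen with earlier results of these data known, and the study had itself named Ifng from these libraries. Text names the members, their receptors, the 3 protein-coding neighbours on each side, the 3 genes of highest Pearson r per member, and for each pathway list and comparison up to 4 called genes in each direction by size; B cell, T cell and other marker lists were summed. Some genes of these lists are not reported here and were left out of their counts and sums. Replicate numbers were shared between groups: with the placement used, deviations of same-numbered libraries correlated in 18 of 18 pairs of libraries at 0.101 to 0.531 (other pairs -0.416 to 0.171), so a paired fit with the number as a block was an alternative. Others were the labelled groups, both relabelled libraries left out, other scalings, a pseudocount of 0.1, no filter, short non-coding RNAs left out, a trended prior, groups fitted alone and each library left out. Sequence windows and motifs came from RefSeq, gene positions from GENCODE M1.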

Additional observations from a re-analysis of the deposited data

How the results depend on the processing

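Of 456 alternative values for the 20 differences and interactions of the 4 genes, 428 kept direction and side of the thresholds and 10 reversed. With groups by label, the log2 differences were, for TB IL-2 minus TB IL-2nil, -2.06 (Ifng), 0.26 (Tnf), 1.13 (Lta) and -0.48 (Ltb); for TB+ IL-2 minus TB IL-2, 5.98 (Ifng), 2.98 (Tnf), 0.2 (Lta) and -0.78 (Ltb); for TB+ IL-2nil minus TB IL-2nil, 5.82 (Ifng), 5.42 (Tnf), 1.91 (Lta) and -1.58 (Ltb); and for TB+ IL-2 minus TB+ IL-2nil, -1.91 (Ifng), -2.17 (Tnf), -0.58 (Lta) and 0.32 (Ltb), none called; genes called then numbered 12, 44, 255 and 15 for these comparisons in that order and 0 for the interaction (413 at an unadjusted p under 0.05). Leaving out both relabelled libraries kept the call of each of the 20 but left 4 genes in the interaction.

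The fall of Ltb with PMA/I in IL-2 missed 3-fold with no filter (-1.44), median-ratio scaling (-1.34) and short non-coding RNAs left out (-1.58), and without single libraries ran from -1.87 to -1.44. Under quantile normalization the Ltb difference between resting groups was called (-1.75), as was the Lta interaction (-1.92, adjusted p = 0.0488, range 0.0488 to 0.914). It was with this normalization that the deposited values matched the study's expression table. The Ifng interaction was -0.22 with a pseudocount of 0.1 and -0.38 to 0.43 without single libraries; the Lta difference in IL-2 was 0.86 to 1.66. The cause was not tested.

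Adding the replicate block, the paired fit, changed no member's call (Ifng after PMA/I, adjusted p = 0.0947; Tnf and Lta interactions, 0.0674 and 0.0663), but the number of genes with an interaction went from 526 to 1478. It was 1 without scaling, 241 with a pseudocount of 0.1, and 84 (without TB IL-2nil replicate 2) to 1302 (without TB+ IL-2nil replicate 3) with single libraries left out. The pseudocount of 0.1 also gave 1470, 3472 and 691 called genes for PMA/I with IL-2, PMA/I without IL-2 and IL-2 after PMA/I, against 876, 2296 and 451. For PMA/I without IL-2, 968 genes were higher and 1328 lower, against 1315 and 743 under median-ratio scaling and 638 and 2539 without scaling.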
